A study of Mus musculus with 12 samples.

Results

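The mouse mitochondrial genome encodes a small set of subunits of the respiratory chain, and 10 of them are described here over embryonic stem cells with and without MTCH2: mt-Nd1, mt-Nd2, mt-Nd4, mt-Nd5 and mt-Nd6 of complex I, mt-Cytb of complex III, mt-Co1, mt-Co2 and mt-Co3 of complex IV, and mt-Atp6 of complex V. They were taken by symbol from a table of reads counted per gene, and all 10 were found among its 46477 entries. The other 3 protein genes of mitochondrial DNA, mt-Nd3, mt-Nd4l and mt-Atp8, are given for comparison only. A total of 7 of the 10 were counted deeply enough to be tested, and mt-Co2, mt-Co3 and mt-Atp6 were not.

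Mitochondrial DNA is transcribed from both strands into long precursors, which are cut into single messenger, ribosomal and transfer RNAs, and most of the messengers then receive a short poly-A tail. The proteins they encode are core, membrane-bound subunits that are built into complexes I, III, IV and V together with many subunits imported after translation of nuclear messengers, while complex II is encoded by nuclear genes alone. Naive embryonic stem cells respire, and their shift toward the primed state is known to be accompanied by a turn to glycolysis.

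Poly-A RNA was measured in 12 libraries, 3 in each of 4 groups. The question was how loss of MTCH2, a protein of the outer mitochondrial membrane, changes the passage from naive to primed pluripotency. All cells descend from C57BL/6 embryos of embryonic day 3.5 in which both Mtch2 alleles carry loxP sites (MTCH2 F/F). The MTCH2-/- ESCs are such cells exposed to Cre recombinase in culture and kept in 2i/LIF (inhibitors of MEK and GSK3 with leukemia inhibitory factor), and the MTCH2-/- EpiLCs, epiblast-like cells, are the same cells moved to Activin A and FGF2 for 2 days. The MTCH2 F/F EpiLCs and their parent MTCH2 F/F ESCs were grown in the same media without Cre, so that the deletion and the exposure to Cre cannot be told apart. The label of each library holds a number from 1 to 3 that recurs in the 4 groups.

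Deposited counts summed to 17453328 to 24068523 per library. Mtch2 itself had 2.18, 1.52 and 1.93 CPM in MTCH2-/- EpiLCs, against 122, 122 and 123 CPM in MTCH2 F/F EpiLCs. It had 2.19, 1.58 and 1.82 CPM in MTCH2-/- ESCs, against 175, 183 and 172 CPM in MTCH2 F/F ESCs, so every library had the level of its label. CPM here are counts relative to a library total scaled by TMM, edgeR's correction for differences in library make-up. The summed CPM of 4 general pluripotency markers was 1589 to 1854 in MTCH2-/- EpiLCs, 1246 to 1567 in MTCH2-/- ESCs, 1842 to 2055 in MTCH2 F/F EpiLCs and 1744 to 1848 in MTCH2 F/F ESCs, so that the ESC groups did not overlap. The summed CPM of 10 fibroblast markers, which the feeder cells used for maintenance would carry, was 41.2 to 57.0 in MTCH2-/- EpiLCs, 39.7 to 59.6 in MTCH2-/- ESCs, 39.1 to 44.8 in MTCH2 F/F EpiLCs and 31.9 to 40.5 in MTCH2 F/F ESCs, with no marker at 0 in all libraries. Of 8 of these markers that were tested, 7 were higher in MTCH2-/- ESCs than in MTCH2 F/F ESCs (23.3% of all genes), and 5 were higher (32.3% of all genes) and 2 lower (30.2%) in MTCH2-/- EpiLCs than in MTCH2 F/F EpiLCs. Primitive endoderm markers summed to 155 to 200.4 CPM in MTCH2-/- EpiLCs, 214 to 236 in MTCH2-/- ESCs, 97.3 to 106 in MTCH2 F/F EpiLCs and 182 to 205 in MTCH2 F/F ESCs. Trophoblast markers summed to 57.3 to 67.7 CPM in MTCH2-/- EpiLCs, 161 to 191 in MTCH2-/- ESCs, 44.0 to 56.5 in MTCH2 F/F EpiLCs and 132 to 154 in MTCH2 F/F ESCs. The part of such cells in the results was not tested.

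The sequences come first, because 3 of the 10 transcripts have hardly a stretch of read length to themselves. Reads were single and 60 bases long, and the mouse nuclear genome holds copies of mitochondrial DNA that are identical to it over stretches longer than a read. On chromosome 1 of GRCm38, between bases 24611535 and 24616197, 7 annotated unprocessed pseudogenes follow each other that copy mt-Co1, mt-Co2, mt-Atp6, mt-Co3, mt-Nd3, mt-Nd4l and mt-Nd4. A stretch of read length from the middle of mt-Atp6 (chrM:8237-8296, plus strand) and the stretch at the same place in its copy Gm10925 (chr1:24614282-24614341, minus strand) are shown because no base tells them apart.
mt-Atp6: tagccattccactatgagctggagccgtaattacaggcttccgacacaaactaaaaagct
Gm10925: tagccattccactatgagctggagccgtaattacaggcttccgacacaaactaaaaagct
The copy of mt-Co1, Gm29216, begins inside the gene and is shown because it differs from mt-Co1 only near its start (mt-Co1 at chrM:6381-6440, plus strand, and Gm29216 at chr1:24616138-24616197, minus strand). Of the 691 stretches of 60 bases in mt-Co1 that occur in another transcript, 420 occur in Gm29216. Gm13340, a copy on chromosome 2, holds 327, so Gm29216 does not mark where the shared sequence of mt-Co1 begins. Capitals mark the 6 bases of 492 at which Gm29216 differs, all of them near its start.
mt-Co1: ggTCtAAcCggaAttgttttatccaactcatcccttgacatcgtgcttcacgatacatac
Gm29216: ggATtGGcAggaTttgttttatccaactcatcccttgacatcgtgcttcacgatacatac

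All windows of 60 bases in each gene were searched in the 141730 annotated transcripts that are not encoded by mitochondrial DNA (sequences of GENCODE vM21 on GRCm38). In mt-Co2 (chrM, bases 7013 to 7696) 625 of 625 windows occurred in another transcript, in mt-Co3 (bases 8607 to 9390) 724 of 725 did, and in mt-Atp6 (bases 7927 to 8607) 619 of 622 did. The share was 61.9% in mt-Nd4, 46.5% in mt-Co1, 7.15% in mt-Nd2 and 4.42% in mt-Nd5, and no window of mt-Nd1, mt-Nd6 or mt-Cytb was found elsewhere. The 3 members with nearly all windows shared were thus also the 3 with almost no counts. Their copies on chromosome 1 were counted no more deeply, and the 7 entries there held 87 counts in all over the 12 libraries. A copy of mt-Co2 on chromosome 2, Gm13341, held 163 counts, against 14 for mt-Co2 itself. The sources used here do not say how reads with several matching places were treated, and the part of shared sequence in the low counts was not tested.

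mt-Co2, which encodes the subunit that takes electrons from cytochrome c, had 2, 0 and 2 counts in MTCH2-/- EpiLCs, 0, 1 and 0 in MTCH2-/- ESCs, 0, 0 and 4 in MTCH2 F/F EpiLCs and 1, 2 and 2 in MTCH2 F/F ESCs. mt-Co3, a further core subunit of cytochrome c oxidase, had group totals of 2 counts in MTCH2-/- EpiLCs, 7 in MTCH2-/- ESCs, 6 in MTCH2 F/F EpiLCs and 9 in MTCH2 F/F ESCs. mt-Atp6, which encodes the proton channel subunit of ATP synthase, had 0, 0 and 0 counts in MTCH2-/- EpiLCs, 0, 1 and 0 in MTCH2-/- ESCs, 0, 4 and 3 in MTCH2 F/F EpiLCs and 3, 3 and 8 in MTCH2 F/F ESCs. A count of 0 in a library of MTCH2-/- EpiLCs allows up to 0.159 CPM for counting error, taken as 3 counts, and no fold change is given for these genes. Complex V therefore has no member with a measured change, and complex IV has mt-Co1 alone. Among the genes given for comparison, mt-Nd3 and mt-Nd4l, with 97.9% and 98.7% of windows shared, were as low, and so was mt-Atp8, of which no window was found in another annotated transcript and which had 0 or 1 count in every library. Copies outside annotated transcripts were not searched, and mt-Atp8 lies between mt-Co2 and mt-Atp6 (bases 7766 to 7969, overlapping the start of mt-Atp6), where the stretch between their copies on chromosome 1 is not part of either annotated copy.

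**Figure D1:**
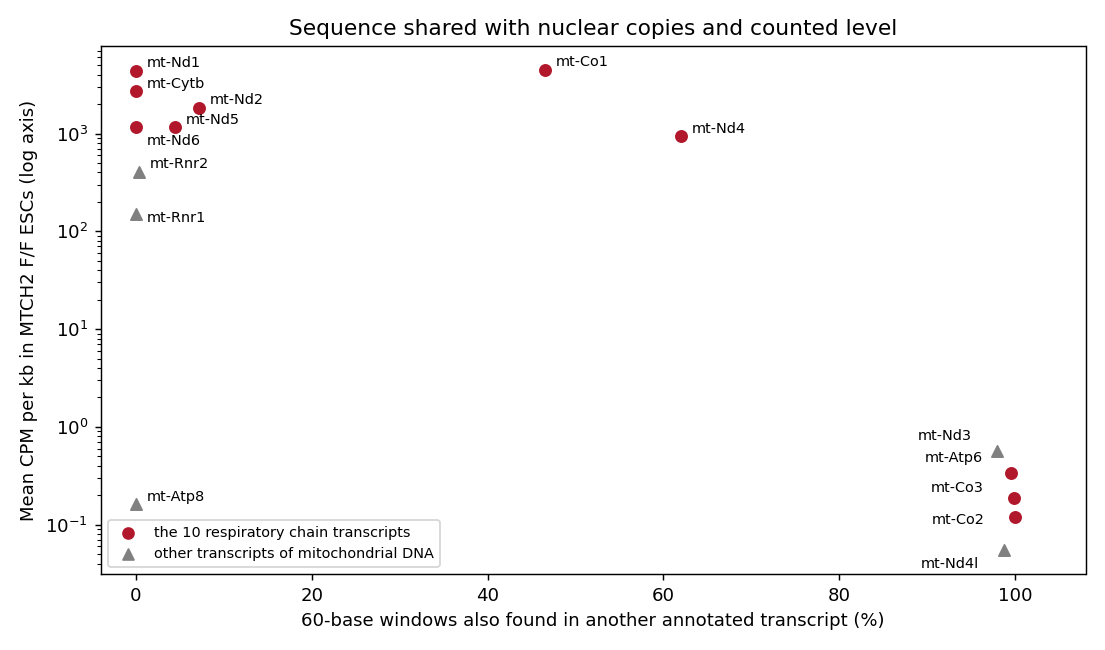
Each point is a gene of mitochondrial DNA, with the share of its 60-base windows that occur in another annotated transcript (%) on the x axis and its mean CPM per kb over 3 MTCH2 F/F ESC libraries on a log y axis. mt-Co2, mt-Co3 and mt-Atp6 lie at shares of 99.5% to 100% and below 1 CPM per kb, mt-Co1 and mt-Nd4 were counted at shares of 46.5% and 61.9%, and mt-Atp8 is low at a share of 0, which covers annotated transcripts only.

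The ends of the transcripts were looked at as well, because the libraries were made from poly-A RNA and several of these genes end before their stop codon is complete, the tail itself then supplying the missing bases. Of the members, mt-Nd4, mt-Cytb and mt-Co3 end 1 base past their last full codon. The last 30 bases of mt-Cytb (chrM:15259-15288), which was counted deeply, and of mt-Co3 (chrM:9361-9390), which was not, are shown with that base in capitals, and an incomplete stop codon thus occurred on both sides. Those of mt-Nd5 (chrM:13536-13565, plus strand) and mt-Nd6 (chrM:13552-13581, minus strand) are shown with the stop codon in capitals because the genes overlap by 14 bases on opposite strands.
mt-Cytb: tcgaagacaaaatactaaaattatatccaT
mt-Co3: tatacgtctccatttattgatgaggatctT
mt-Nd5: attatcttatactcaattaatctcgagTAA
mt-Nd6: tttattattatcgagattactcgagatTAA
The library kit did not mark the strand. Reads counted for mt-Nd6, the only member on the minus strand, can therefore come from that messenger or from RNA of the opposite strand.

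The 7 counted members ranged over more than an order of magnitude, with 3016 to 147136 counts per library. Per kb of gene, mt-Co1 averaged 1015 ± 3.64 CPM in MTCH2-/- EpiLCs, 1179 ± 93.7 in MTCH2-/- ESCs, 3298 ± 102 in MTCH2 F/F EpiLCs and 4470 ± 218 in MTCH2 F/F ESCs (SD, n = 3 each). In MTCH2 F/F ESCs it was followed by mt-Nd1 with 4371 ± 110 CPM per kb, mt-Cytb with 2700 ± 34.5, mt-Nd2 with 1837 ± 85.5, mt-Nd6 with 1160 ± 60.01, mt-Nd5 with 1159 ± 69.5 and mt-Nd4 with 934 ± 56.8. In that order mt-Co1 and mt-Nd1 did not differ beyond their spread, and neither did mt-Nd6 and mt-Nd5. The order changed when counts were set against unshared sequence only, a scale that takes all reads as coming from it, which was not tested. Per 1000 windows that occur in no other transcript, mt-Co1 stood at 8688 ± 424 CPM in MTCH2 F/F ESCs and mt-Nd1 at 4658 ± 117, and mt-Nd4 moved up past mt-Nd2, with 2563 ± 156 against 2097 ± 97.6.

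Loss of MTCH2 in naive cells went with lower counts of each of the 7 members, with a median of 26.4% of the MTCH2 F/F level. In bulk RNA, fewer transcripts per cell, fewer mitochondria per cell and fewer cells of a type that holds many cannot be told apart. The same holds for fewer copies of mitochondrial DNA. The study reported a lower copy number of mitochondrial DNA in MTCH2-/- ESCs. It also reported lower TOM20 protein there, which in its words may reflect less mitochondrial mass. The part of either in these counts was not tested. With edgeR's quasi-likelihood test and an adjusted p under 0.05, 7 of 7 were lower in MTCH2-/- ESCs than in MTCH2 F/F ESCs and all 7 by at least 2-fold, where 20.4% of all 17369 genes tested were lower and 1.92% were lower by at least 2-fold. The ranges of the 7 members did not overlap between the groups, which held, in the lower direction, for 26.7% of all genes. The median log2 fold change of the 7 was -1.92, within -2.01 to -1.78, and that of all genes tested was 0.01.

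In complex I, mt-Nd1, a core subunit beside the ubiquinone site, had 984, 1197 and 1124 CPM in MTCH2-/- ESCs, against 4127, 4118 and 4304 CPM in MTCH2 F/F ESCs. Its log2 fold change was -1.92 ± 0.07 (SE; edgeR, adjusted p = 2.64e-11). mt-Nd5, which encodes a subunit of the proton-pumping arm, had 523, 544 and 507 CPM in MTCH2-/- ESCs, against 2062, 2022 and 2259 CPM in MTCH2 F/F ESCs. It had the lowest log2 fold change of the 7, -2.01 ± 0.06 (SE; edgeR, adjusted p = 3.56e-12), and its highest MTCH2-/- library lay far below its lowest MTCH2 F/F library.

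mt-Nd2 and mt-Nd4, further subunits of the membrane arm of complex I, changed by a similar amount. For mt-Nd2 the MTCH2-/- ESCs had 463, 517 and 456 CPM and the MTCH2 F/F ESCs 1911, 1816 and 1993 CPM. For mt-Nd4 the MTCH2-/- ESCs had 333, 357 and 330 CPM and the MTCH2 F/F ESCs 1245, 1238 and 1377 CPM. No library crossed to the other group for either gene. mt-Nd6, the only member read from the other strand, had 159, 182 and 168 CPM in MTCH2-/- ESCs, against 603, 570 and 633 CPM in MTCH2 F/F ESCs. The log2 fold changes were -1.99 for mt-Nd2, -1.92 for mt-Nd4 and -1.83 for mt-Nd6, each with a standard error of 0.06 or 0.07. Since reads carry no strand, the value for mt-Nd6 cannot be assigned to the minus-strand messenger alone.

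Outside complex I, mt-Cytb, the catalytic cytochrome b of complex III, had 828, 949 and 932 CPM in MTCH2-/- ESCs, against 3044, 3113 and 3111 CPM in MTCH2 F/F ESCs. Its log2 fold change of -1.78 ± 0.06 (SE; edgeR, adjusted p = 1.55e-11) was the smallest of the 7 in size. mt-Co1, the catalytic subunit of cytochrome c oxidase, had 1660, 1941 and 1861 CPM in MTCH2-/- ESCs, against 6650, 6782 and 7288 CPM in MTCH2 F/F ESCs. The lowest of the MTCH2-/- libraries was replicate 1 for mt-Nd1, mt-Nd6, mt-Cytb and mt-Co1 alike, and the fold change of mt-Co1 was -1.92 ± 0.07 on the log2 scale (SE; edgeR, adjusted p = 1.29e-11).

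**Figure D2:**
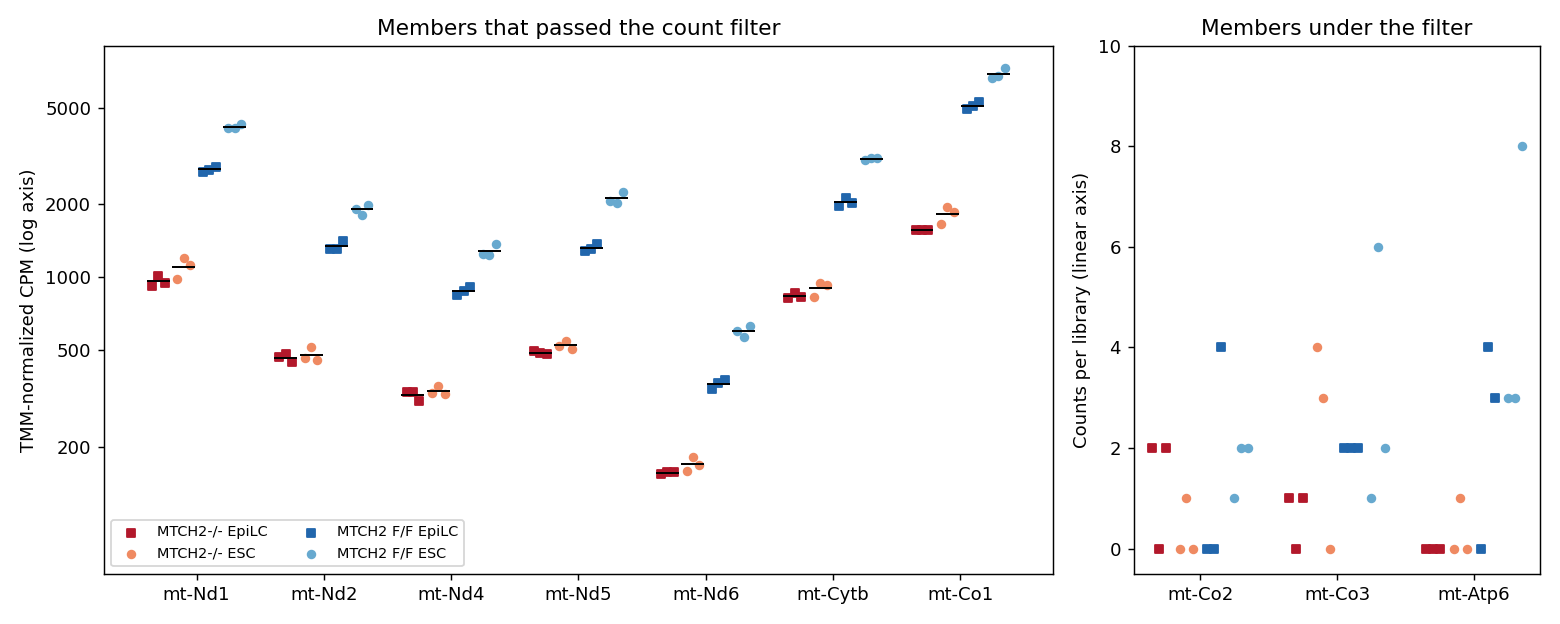
The left panel plots TMM-normalized CPM on a log axis for the 7 members that passed the count filter, and the right panel counts per library on a linear axis for the other 3, with 1 point per library, 3 per group, and the mean of each group as a black bar on the left. MTCH2-/- libraries lie below MTCH2 F/F libraries for all 7, for mt-Co1 with a highest MTCH2-/- value of 1941 CPM and a lowest MTCH2 F/F value of 4956 CPM, and no library has more than 8 counts in the right panel.

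After priming the deficit was smaller but present for the same 7 members. All 7 were lower in MTCH2-/- EpiLCs than in MTCH2 F/F EpiLCs and all 7 by at least 2-fold, where 30.2% of all genes were lower and 7.03% by at least 2-fold, and ranges did not overlap for any of the 7 (32.6% of all genes in that direction). The median log2 fold change was -1.44, within -1.70 to -1.21, against 0.02 over all genes. mt-Co1 had 1562, 1573 and 1570 CPM in MTCH2-/- EpiLCs, against 4956, 5065 and 5266 CPM in MTCH2 F/F EpiLCs. It now changed most, by -1.70 ± 0.07 on the log2 scale (SE; edgeR, adjusted p = 2.59e-11), and its MTCH2-/- libraries differed by less than 1%.

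mt-Nd1 had 924, 1017 and 948 CPM in MTCH2-/- EpiLCs, against 2727, 2780 and 2852 CPM in MTCH2 F/F EpiLCs. mt-Cytb had 823, 859 and 831 CPM in MTCH2-/- EpiLCs, against 1969, 2124 and 2026 CPM in MTCH2 F/F EpiLCs. The log2 fold change was -1.53 ± 0.07 for mt-Nd1 and -1.28 ± 0.06 for mt-Cytb (SE; edgeR, adjusted p = 1.41e-10 and 2.26e-10), so mt-Cytb again changed less than mt-Nd1. mt-Nd6, with 154, 158 and 157 CPM in MTCH2-/- EpiLCs against 345, 366 and 379 CPM in MTCH2 F/F EpiLCs, changed least, by -1.21 ± 0.06 (SE; edgeR, adjusted p = 6.32e-10). The other complex I members lay between these values, at -1.53 for mt-Nd2, -1.44 for mt-Nd5 and -1.43 for mt-Nd4.

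The EpiLC groups also differed in markers of cell state. The summed CPM of 12 naive pluripotency markers was 2549 to 2675 in MTCH2-/- EpiLCs and 389 to 720 in MTCH2 F/F EpiLCs, and that of 9 formative and primed markers was 826 to 1072 in MTCH2-/- EpiLCs and 3361 to 4046 in MTCH2 F/F EpiLCs. In ESCs the naive sum was 4729 to 5261 in MTCH2-/- cells and 5556 to 6057 in MTCH2 F/F cells. Gene by gene, 2 of the 12 naive markers were lower there (20.4% of all genes) and 10 did not pass, with a median log2 fold change of -0.15. The part of cell state in the members' levels was not tested.

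Priming lowered the members in cells that have MTCH2. In MTCH2 F/F EpiLCs, 7 of 7 were lower than in MTCH2 F/F ESCs (32.1% of all genes) and none by 2-fold (14.2% of all genes), with ranges that did not overlap (36.0% of all genes in that direction). The median log2 fold change was -0.59, against -0.01 over all genes. mt-Nd6 changed most, by -0.73 ± 0.06 (SE; edgeR, adjusted p = 4.72e-08), and mt-Co1 least, by -0.44 ± 0.06 (SE; edgeR, adjusted p = 1.62e-05).

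In MTCH2-/- cells priming moved the members little. Only mt-Co1 and mt-Nd1, 2 of 7, were lower in MTCH2-/- EpiLCs than in MTCH2-/- ESCs (22.2% of all genes), by -0.22 ± 0.06 and -0.19 ± 0.07 on the log2 scale (SE; edgeR, adjusted p = 0.0125 and 0.0320), and the values of the other 5 lay between -0.12 and -0.04. The median of the 7 was -0.11, against -0.02 over all genes, and ranges did not overlap for 3 of 7 (mt-Nd5, mt-Nd6 and mt-Co1), where 25.5% of all genes were lower without overlap. These calls were fragile. Without MTCH2-/- ESC replicate 2 none of the 7 passed, with mt-Co1 at -0.17 (edgeR, adjusted p = 0.0660) and mt-Nd1 at -0.13 (edgeR, adjusted p = 0.165), while without MTCH2-/- ESC replicate 1 mt-Cytb passed as well, at -0.17 (edgeR, adjusted p = 0.0330). mt-Nd1 held its call only when the library left out was MTCH2-/- ESC replicate 1 or MTCH2-/- EpiLC replicate 2.

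The difference between these responses was tested directly, as the response of MTCH2-/- cells minus that of MTCH2 F/F cells. It was above 0 with an adjusted p under 0.05 for 6 of 7 members, where 17.8% of all genes were called in that direction, and its median was 0.49. The values ran from 0.39 ± 0.10 for mt-Nd1 to 0.61 ± 0.09 for mt-Nd6 (SE; edgeR, adjusted p = 0.00520 and 7.85e-05). For mt-Co1 the difference was 0.22 ± 0.09 and did not pass (edgeR, adjusted p = 0.0660), but with the replicate number as a block it was 0.22 and passed (edgeR, adjusted p = 0.0157), as it also did without MTCH2-/- ESC replicate 2, at 0.27 (edgeR, adjusted p = 0.0331). Whether mt-Co1 differed from the other members in this was not tested. The same difference of responses was called above 0 for 11 of 12 naive pluripotency markers and below 0 for 8 of 9 formative and primed markers.

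**Figure D3:**
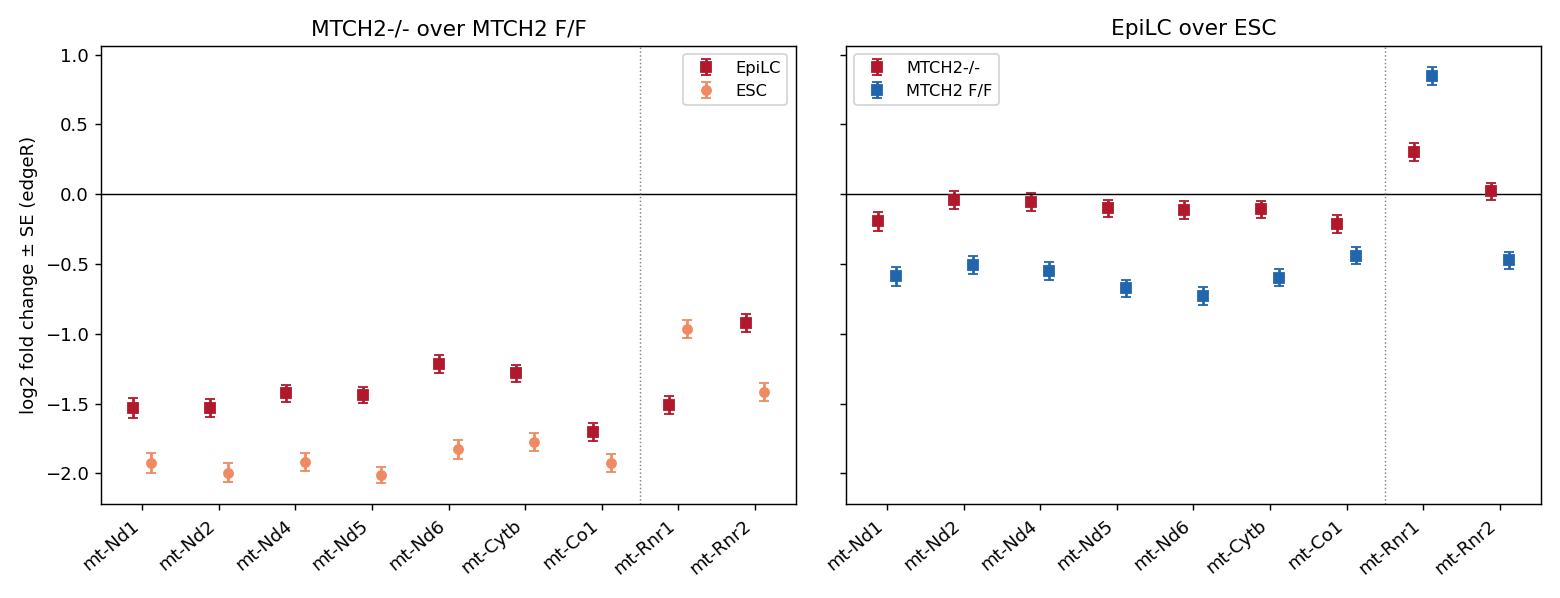
log2 fold changes with standard errors from the edgeR fit, for MTCH2-/- over MTCH2 F/F in EpiLCs and ESCs on the left and for EpiLC over ESC in both genotypes on the right, with the ribosomal RNAs right of the dotted line. The 7 members lie between -2.01 and -1.21 on the left, and on the right between -0.22 and -0.04 in MTCH2-/- cells and between -0.73 and -0.44 in MTCH2 F/F cells, while mt-Rnr1 lies above 0 on the right.

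Summed over the 10 members, the share of a library's counts was 0.500%, 0.497% and 0.486% in MTCH2-/- EpiLCs and 0.508%, 0.569% and 0.544% in MTCH2-/- ESCs. It was 1.34%, 1.35% and 1.39% in MTCH2 F/F EpiLCs and 1.93%, 1.91% and 2.03% in MTCH2 F/F ESCs. Counting error was small beside these differences, since the widest 95% Wilson interval of a library was 0.0121 percentage points, though reads without molecular identifiers are not independent molecules and such intervals and floors cover counting error only. The share in MTCH2-/- ESCs was 0.276 times that in MTCH2 F/F ESCs, and in MTCH2-/- EpiLCs 0.363 times that in MTCH2 F/F EpiLCs. None of the 4 pairs of groups overlapped, and for each the exact two-sided permutation test gave p = 0.1, the smallest that 3 libraries against 3 allow.

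The make-up of the sum changed far less than its size. mt-Co1 took the largest share of the member counts in each group, with 32.6 ± 0.554% in MTCH2-/- EpiLCs, 34.1 ± 0.538% in MTCH2-/- ESCs, 36.8 ± 0.214% in MTCH2 F/F EpiLCs and 34.4 ± 0.465% in MTCH2 F/F ESCs (SD, n = 3 each). mt-Cytb took 17.4 ± 0.126% in MTCH2-/- EpiLCs and 14.7 ± 0.557% in MTCH2 F/F EpiLCs. In ESCs it took 16.9 ± 0.364% in MTCH2-/- cells and 15.4 ± 0.507% in MTCH2 F/F cells. Ranges did not overlap for mt-Nd6 and mt-Cytb, 2 of 10, between the ESC groups, both with the larger share in MTCH2-/- cells. Between the EpiLC groups 5 did not overlap, mt-Nd4, mt-Nd5, mt-Nd6 and mt-Cytb with the larger and mt-Co1 with the smaller share in MTCH2-/- cells. Each of these had an exact permutation p of 0.1, which the adjustment over the 10 members raised to 0.5 in ESCs and 0.2 in EpiLCs, so none passed. None could have passed, since 0.1 is the smallest p possible here. The 10 include mt-Co2, mt-Co3 and mt-Atp6, which had too few counts to show a difference.

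With priming, mt-Co1 took a larger share in MTCH2 F/F EpiLCs than in MTCH2 F/F ESCs, and mt-Nd1, mt-Nd5 and mt-Nd6 took smaller shares, 4 of 10 without overlap. In MTCH2-/- cells mt-Co1 took a smaller share after priming, and mt-Nd2 and mt-Nd6 larger shares, 3 of 10 without overlap, which left 0 when mt-Co1 was taken out of the sum. The exact permutation p was again 0.1 for each, the smallest possible (adjusted 0.25 and 0.333).

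**Figure D4:**
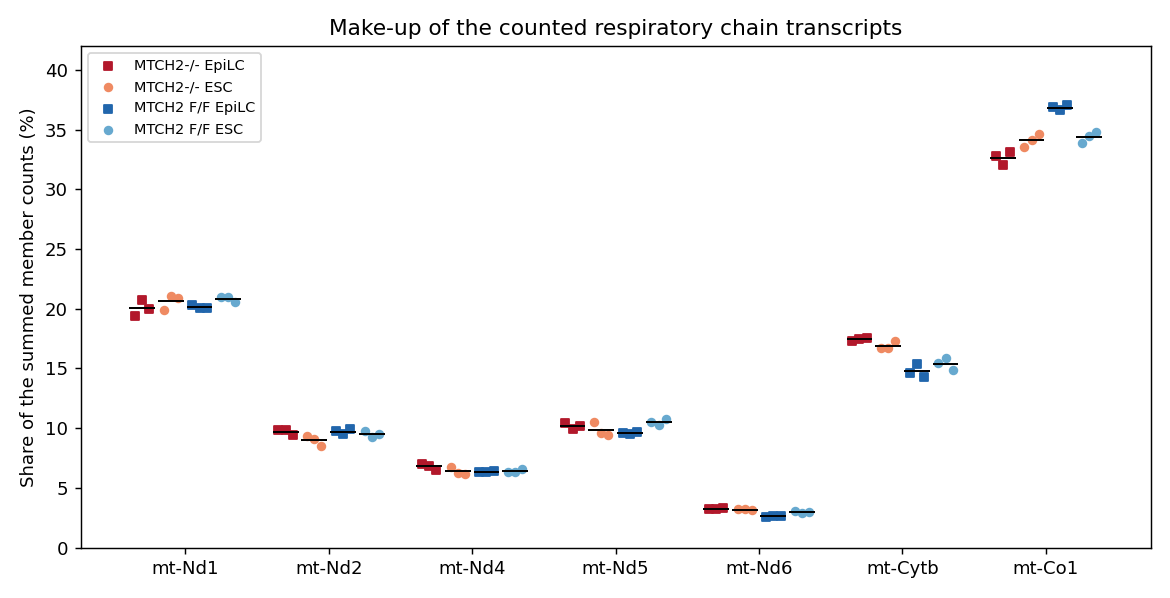
The share of each of the 7 counted members in the summed counts of all 10 members (%), with 1 point per library, 3 per group, and the group mean as a black bar. mt-Co1 lies at 32.6% in MTCH2-/- EpiLCs against 36.8% in MTCH2 F/F EpiLCs, and mt-Cytb at 17.4% against 14.7%, while mt-Nd1 stays near 20% in all groups.

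The ribosomal RNAs of mitochondrial DNA did not follow the messengers in full. mt-Rnr2, the large ribosomal RNA, had 238, 248 and 249 CPM in MTCH2-/- EpiLCs against 454, 460 and 480 CPM in MTCH2 F/F EpiLCs, and 231, 242 and 251 CPM in MTCH2-/- ESCs against 695, 630 and 610 CPM in MTCH2 F/F ESCs. mt-Rnr1, the small ribosomal RNA, had 83.5, 95.3 and 91.7 CPM in MTCH2-/- EpiLCs against 244, 258 and 268 CPM in MTCH2 F/F EpiLCs, and 69.0, 77.9 and 72.0 CPM in MTCH2-/- ESCs against 144, 142 and 142 CPM in MTCH2 F/F ESCs. Both were thus lower without MTCH2, at log2 fold changes of -0.92 in EpiLCs and -1.42 in ESCs for mt-Rnr2 and of -1.51 in EpiLCs and -0.97 in ESCs for mt-Rnr1. mt-Rnr1 thus changed more in EpiLCs and mt-Rnr2 more in ESCs. With priming mt-Rnr1 was higher while the members were lower. It rose by 0.85 ± 0.06 in MTCH2 F/F EpiLCs over MTCH2 F/F ESCs and by 0.30 ± 0.07 in MTCH2-/- EpiLCs over MTCH2-/- ESCs (SE; edgeR, adjusted p = 9.35e-09 and 0.00152). In poly-A libraries the counts of ribosomal RNA also depend on how much of it is tailed and carried through selection, which was not measured. The 22 transfer RNA entries together held 36 to 139 counts per library.

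The nuclear genes that build and serve these complexes changed less. Of 36 nuclear subunits of complex I tested, 23 were lower and 1 higher in MTCH2-/- ESCs than in MTCH2 F/F ESCs, with a median log2 fold change of -0.23, and 27 were lower and none higher in EpiLCs, with a median of -0.30 (over all genes, 20.4% were lower and 23.3% higher in ESCs, and 30.2% lower and 32.3% higher in EpiLCs). Ndufc1, an accessory subunit, averaged 12.5 ± 1.56 CPM in MTCH2-/- EpiLCs and 21.7 ± 1.33 CPM in MTCH2 F/F EpiLCs (SD, n = 3 each), the largest change of that list there, at -0.80. All 36 had a smaller decrease than each of the 5 members of complex I, in ESCs and in EpiLCs. Without MTCH2-/- ESC replicate 1, 15 passed in ESCs in place of 24.

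Of the 9 nuclear subunits of complex III, 7 were lower in MTCH2-/- ESCs (20.4% of all genes) and 7 in MTCH2-/- EpiLCs (30.2%), and none was higher. Uqcrh, a small subunit that binds at cytochrome c1, averaged 46.6 ± 0.894 CPM in MTCH2-/- ESCs, against 98.7 ± 3.78 CPM in MTCH2 F/F ESCs (SD, n = 3 each), a log2 fold change of -1.08. In EpiLCs it averaged 38.1 ± 2.07 CPM in MTCH2-/- cells and 76.3 ± 6.99 CPM in MTCH2 F/F cells. It was the nuclear subunit of the lists of complexes I to V that changed most, and mt-Cytb, at -1.78 and -1.28, changed more than it and more than the other 8. Of the 11 nuclear subunits of complex IV, 8 were lower in MTCH2-/- ESCs (median -0.42, 20.4% of all genes lower) and 6 in MTCH2-/- EpiLCs (median -0.24, 30.2% of all genes lower). Among them were Cox6b1 at -0.87 and -0.71 and Cox7a2 at -0.80 and -0.85.

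Complex V, for which no member could be tested, had 12 of 15 nuclear subunits lower in MTCH2-/- ESCs (median -0.36) and 12 of 15 in MTCH2-/- EpiLCs (median -0.37). Over all genes, 20.4% were lower in ESCs and 30.2% in EpiLCs. Atp5k, a small membrane subunit, stood at -0.67 in ESCs and at -0.89 in EpiLCs. Of the 4 subunits of complex II, which has no mitochondrially encoded part, 3 were lower in ESCs (20.4% of all genes) and 3 in EpiLCs (30.2%). Sdhc, a membrane anchor, stood at -0.44 in ESCs and -0.51 in EpiLCs.

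**Figure D5:**
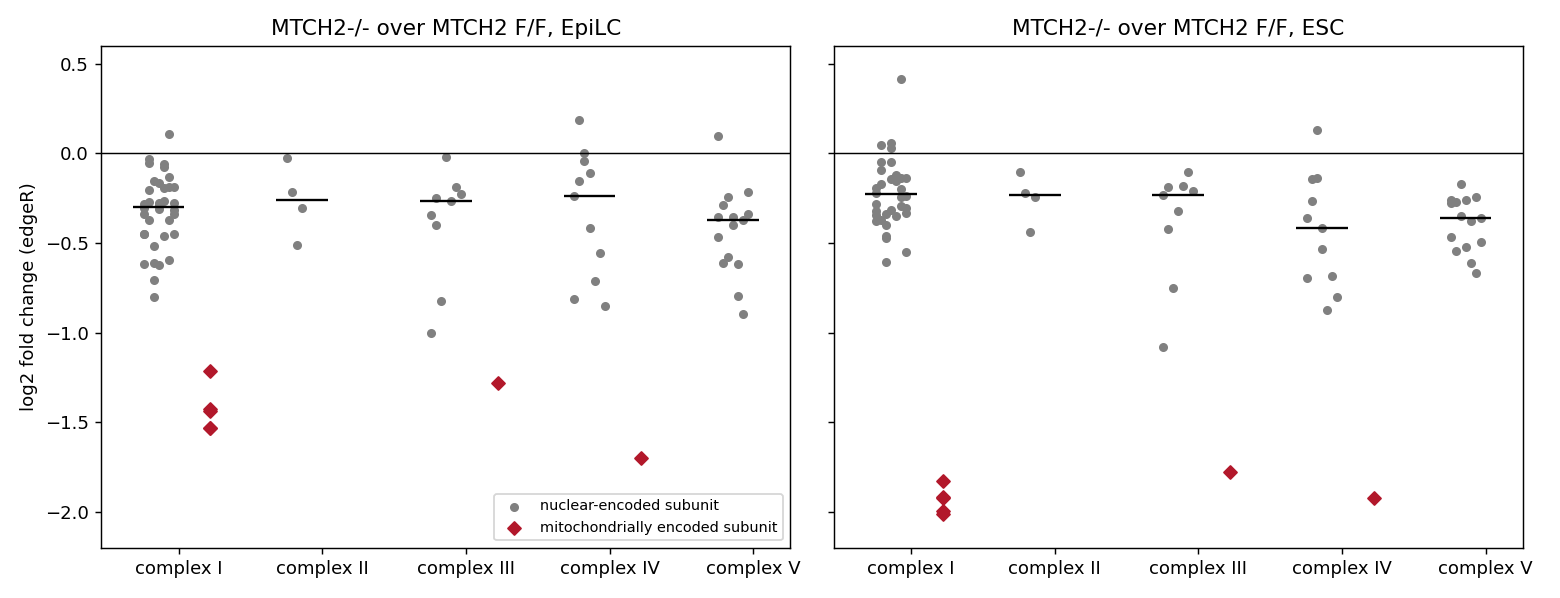
log2 fold change of MTCH2-/- over MTCH2 F/F, for EpiLCs on the left and ESCs on the right, with 1 grey point per nuclear-encoded subunit of each complex, their median as a black bar and 1 red diamond per counted mitochondrially encoded subunit. The lowest grey point in each panel is Uqcrh of complex III, at -1.08 in ESCs, and the red diamonds lie between -2.01 and -1.21.

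Genes that act on the mitochondrial genome were more often called lower than higher, least clearly for DNA replication and nucleotide supply. Over all genes, 20.4% were lower and 23.3% higher in MTCH2-/- ESCs, and 30.2% were lower and 32.3% higher in MTCH2-/- EpiLCs. Of 11 genes of mitochondrial transcription, 4 were lower and none higher in MTCH2-/- ESCs, with a median of -0.13. Tfam, which packages mitochondrial DNA and starts its transcription, averaged 76.8 ± 1.66 CPM in MTCH2-/- ESCs, against 87.2 ± 2.66 CPM in MTCH2 F/F ESCs (SD, n = 3 each), a log2 fold change of -0.18 (edgeR, adjusted p = 0.0194). In EpiLCs 4 were lower and 2 higher. Tfb1m, a methyltransferase of the small ribosomal RNA, stood at -0.88, while Polrmt, the mitochondrial RNA polymerase, and Mterf3, a repressor of mitochondrial transcription, stood at 0.43 and 0.55. Without MTCH2 F/F ESC replicate 2 the ESC count of this list was 2.

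Of 22 genes of mitochondrial RNA processing and stability, 8 were lower and 1 higher in MTCH2-/- ESCs (20.4% and 23.3% of all genes). In MTCH2-/- EpiLCs 9 were lower and 2 higher (30.2% and 32.3% of all genes). The median log2 fold change of this list was -0.13 in ESCs and -0.18 in EpiLCs. Hsd17b10, a part of the enzyme that cuts the 5′ ends of mitochondrial transfer RNAs, stood at -0.62 in ESCs and at -1.09 in EpiLCs, Grsf1, which binds mitochondrial RNA in granules, at -0.51 in ESCs, and Fastkd1 at -0.50 and -0.51. Of 20 genes of mitochondrial DNA replication and nucleotide supply, 7 were lower and 6 higher in MTCH2-/- ESCs (20.4% and 23.3% of all genes). In MTCH2-/- EpiLCs 8 were lower and 5 higher (30.2% and 32.3% of all genes). Here the median was 0.12 in ESCs and -0.06 in EpiLCs. Top1mt, the mitochondrial topoisomerase, stood at 1.32 in ESCs, and Slc25a36, a pyrimidine nucleotide carrier, averaged 428 ± 16.7 CPM in MTCH2-/- EpiLCs and 199 ± 60.3 CPM in MTCH2 F/F EpiLCs (SD, n = 3 each). Ssbp1, which coats single-stranded mitochondrial DNA, stood at -0.69 in EpiLCs, and the ligase Lig3 at -0.41 in ESCs and -0.47 in EpiLCs. Without MTCH2 F/F ESC replicate 1 the ESC count of this list was 8 in place of 13.

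Over the 12 libraries the 7 counted members rose and fell together, with Pearson correlations of log2(CPM + 1) of 0.986 to 0.999 over their 21 pairs, which describe 4 groups of libraries sharing depth and preparation. Of 10065 nuclear genes that averaged 10 CPM or more, those most like the members' summed CPM included Gm2199 (r = 0.985), the deleted gene Mtch2 (0.983), Dse (0.981) and Uqcrh (0.980). Gm2199, a processed pseudogene on chromosome 5, averaged 0.417 ± 0.0593 CPM in MTCH2-/- EpiLCs, 0.415 ± 0.0460 in MTCH2-/- ESCs, 24.8 ± 1.44 in MTCH2 F/F EpiLCs and 32.5 ± 0.877 in MTCH2 F/F ESCs (SD, n = 3 each), and 110 of its 815 windows of 60 bases are found in Mtch2 transcripts.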

How the data were processed

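Poly-A RNA of 12 libraries (4 groups of 3) was sequenced by the study as single reads of 60 bases, from libraries that do not mark strand. The deposited counts are whole reads per gene symbol that the authors made with TopHat2 2.0.10 on GRCm38 and HTSeq 0.6.1p1 on an Ensembl annotation. The sources used here do not state how strand and multiple matches were handled. The deposited table of normalized signal holds counts that the authors scaled by DESeq2 1.6.3 size factors, and it was not used in tests. A further table holds the authors' log2 fold changes and adjusted p-values, which were not used.

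The tests used edgeR 4.0.16 (R 4.3.3). The function filterByExpr kept 17369 of 46477 genes, 7 of the 10 members among them, and TMM set the library scales. A single robust quasi-likelihood model held all 4 groups, and p-values were adjusted over the 17369 genes by the Benjamini-Hochberg method, with calls at an adjusted p under 0.05. Standard errors were derived from the fold change and its F statistic. Shares of counts were compared by exact permutation tests with Python 3.11.15, numpy 2.4.6, pandas 2.3.3 and scipy 1.17.1, figures were drawn with matplotlib 3.10.9, and windows of 60 bases were searched on both strands of GENCODE vM21 transcripts. The fit was also run on simulated counts in which all genes had the same dispersion, few genes changed and replicates were not paired. These settings differ from the data, so that run does not measure the error rate here. Totals of 17453328 to 24068523 counts leave little counting error for 7 members, and the other 3 had too few counts for a test.

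Samples with the same replicate number deviated together (correlations of deviations from the group means of 0.107 to 0.471 over 12 pairs, against -0.317 to 0.00670 for different numbers), so the numbers were taken as pairs in an alternative with a replicate block. Deviations from a mean cancel out within a group, so the values for different numbers are not independent of those for the same number. Whether the libraries of a group come from separate embryos is not stated, so p-values measure the spread between these samples. Other alternatives were RLE scaling, scaling on nuclear genes, no filter, a stricter filter (1 CPM in 6 libraries), DESeq2 1.42.0, a fit of the compared groups alone and leaving out each library. The members, the lists and the tests were chosen with earlier results of these data known. Text names the members, Mtch2, the other genes of mitochondrial DNA, up to 4 called genes per list and comparison with the largest changes and a mean of at least 10 CPM, the 5 nuclear genes most correlated with the members (1 of them is not reported here) and nuclear copies found by sequence.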

Additional observations from a re-analysis of the deposited data

Results flagged for a closer look

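The response to priming of 6 members differed between genotypes when the difference itself was tested (response of MTCH2-/- cells minus that of MTCH2 F/F cells, log2 scale, edgeR). The difference was 0.39 for mt-Nd1, 0.46 for mt-Nd2, 0.49 for mt-Nd4, 0.57 for mt-Nd5, 0.61 for mt-Nd6 and 0.49 for mt-Cytb, with adjusted p between 6.68e-05 and 0.00520. In each case the MTCH2 F/F cells carried the larger decrease, and the ESC levels of MTCH2-/- cells were already below the EpiLC levels of MTCH2 F/F cells. Groups of 3 libraries were not searched for single outlying samples.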

How the results depend on the processing

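Leaving out 1 library at a time kept all 7 counted members lower in both comparisons of genotypes and in priming of MTCH2 F/F cells, and called 6 to 7 for the difference of priming responses. For priming of MTCH2-/- cells it called 0 to 3, against 2, and RLE scaling called 1 and the fit of the MTCH2-/- groups alone 0. The replicate block left 7, 7, 7 and 2 called, raised the 6 of the difference of responses to 7, and changed no other call of a member. It moved no list by over 1.5 times. Blocked ratios of the share of counts were 0.276 and 0.363 for MTCH2-/- over MTCH2 F/F in ESCs and EpiLCs, and 0.916 and 0.696 for EpiLC over ESC in MTCH2-/- and MTCH2 F/F cells, with an exact sign-flip p of 0.25, the smallest for 3 pairs.

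Without single libraries the ESC counts were 2 to 4 for mitochondrial transcription, 8 to 14 for mitochondrial DNA replication and 15 to 25 for nuclear complex I subunits. The EpiLC ratio of shares was 0.347 with summed TMM-normalized CPM in place of 0.363, and the ratio for priming of MTCH2 F/F cells was 0.687 to 0.710 without single libraries. The number of members with shares of the sum that did not overlap in priming of MTCH2-/- cells was 0 without mt-Co1, against 3. In priming of MTCH2-/- cells the log2 fold change of mt-Nd2 was -0.074 to 0.018 without single libraries, above 0 without MTCH2-/- ESC replicate 2, and that of mt-Rnr2 was -0.012 to 0.051, below 0 without MTCH2-/- ESC replicate 1, and neither passed in any of these fits. The difference of responses for mt-Co1 passed with the stricter filter (edgeR, adjusted p = 0.0499) and with DESeq2 (adjusted p = 0.0446). For these, the cause was not tested. Without the filter on low counts 8 members, in place of 7, were called between MTCH2-/- ESCs and MTCH2 F/F ESCs, so that a member under the filter was called there. No fold change is given for mt-Co2, mt-Co3 and mt-Atp6, which had at most 8 counts in a library. The lists, the ribosomal RNAs, Mtch2 and counts of 2-fold changes were added to the alternatives after the data were seen.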

Other observations

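A pair of unprocessed pseudogenes on chromosome 2 that copy mitochondrial DNA carried more counts than the copies on chromosome 1 and were lower in MTCH2-/- cells. Gm13340 shares 327 of its windows of 60 bases with mt-Co1 and had 26, 14 and 18 counts in MTCH2-/- EpiLCs, against 65, 56 and 54 in MTCH2 F/F EpiLCs, and 28, 26 and 28 in MTCH2-/- ESCs, against 82, 85 and 99 in MTCH2 F/F ESCs. Its log2 fold change was -1.75 ± 0.22 in EpiLCs and -1.78 ± 0.20 in ESCs (SE; edgeR, adjusted p = 5.14e-06 and 6.26e-06). Gm13341 shares 184 windows with mt-Co2, which itself could not be counted, and had 7, 8 and 5 counts in MTCH2-/- EpiLCs, against 19, 23 and 12 in MTCH2 F/F EpiLCs, and 8, 3 and 3 in MTCH2-/- ESCs, against 26, 21 and 28 in MTCH2 F/F ESCs. Its log2 fold change was -1.56 ± 0.36 in EpiLCs and -2.49 ± 0.36 in ESCs (SE; edgeR, adjusted p = 0.00130 and 5.78e-05). With priming of MTCH2 F/F cells Gm13340 was lower (-0.48; edgeR, adjusted p = 0.0334) and Gm13341 did not pass (-0.36; edgeR, adjusted p = 0.288), and in MTCH2-/- cells neither passed, at -0.45 for Gm13340 and 0.57 for Gm13341 (edgeR, adjusted p = 0.147 and 0.361). Whether these reads come from chromosome 2 or from mitochondrial DNA cannot be told apart from the counts. A further copy there, Gm13339 of mt-Nd2, had 13 counts in all.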
